A study of Sus scrofa with 23 samples.

Results

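Fast-twitch muscle fibres contract with their own forms of the sarcomere proteins, and the genes described here were 10 of these: the myosin heavy chains MYH1, MYH2 and MYH4, the myosin light chains MYLPF and MYL1, the troponin subunits TNNI2, TNNT3 and TNNC2, the tropomyosin TPM1 and the actinin ACTN3. Their probes were read in Longissimus, the long muscle of the back, of 23 pigs at 115 kg body weight, with 1 single-colour array for each pig. RFI, residual feed intake, is what a pig eats beyond the amount predicted from its growth and upkeep. The groups were 7 pigs of the low-RFI strain (RFIneg, fed ad libitum), 8 pigs of high RFI given feed at the level of the low-RFI pigs (RFIplR), and 8 pigs of high RFI fed ad libitum (RFIpl). No age or sex is given in the labels, which name nothing else that differs between groups. Probes were taken where the gene name or the description on the array gave one of the 10 symbols. This gave 69 of 43603 probes, for 9 of the 10 genes: 21 probes for TPM1, 15 for MYL1, 8 for MYH4, 7 for MYH1, 5 for TNNC2, 4 each for MYLPF and TNNT3, 3 for MYH2 and 2 for TNNI2. No probe was found for ACTN3 by this rule, so the fast actinin of the Z disc was not analysed here.

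In a sarcomere, myosin heavy chains form the thick filament and hydrolyse ATP, and the light chains MYLPF (regulatory) and MYL1 (essential) bind the neck of each myosin head. On the thin filament, TNNC2 binds calcium, TNNI2 holds contraction off at rest and TNNT3 anchors both to tropomyosin. The heavy chain isoform sets the fibre type: MYH2 marks type IIA, MYH1 type IIX and MYH4 type IIB fibres, and pig Longissimus is known for its many IIB fibres. TPM1 is also made in slow fibres, heart and smooth muscle, so that it is the least specific of the list. The heavy chain genes are near copies of each other, and in the Sscrofa11.1 annotation MYH1 lies between MYH4 and MYH2 with 0 genes between neighbours. TNNI2 and TNNT3 also lie close together, with 2 genes between them.

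The probes are 60 bases long, and those on which the results turn are shown here as the array files give them. Each printed probe can be read without a stop codon in at least 1 of 3 frames. The first set gives an example of bases shared between heavy chain copies: probes for MYH1, MYH2 and MYH4 shared a run of 12, in capitals. It does not measure how alike the genes are. Among 2346 probe pairs compared, 2 pairs of different genes shared at least 16 bases on the same strand, the longest run being 19.
MYH1 A_72_P608642: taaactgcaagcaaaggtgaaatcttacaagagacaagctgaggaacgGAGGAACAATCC
MYH2 A_72_P694038: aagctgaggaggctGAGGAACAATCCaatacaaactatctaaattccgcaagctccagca
MYH4 A_72_P441939: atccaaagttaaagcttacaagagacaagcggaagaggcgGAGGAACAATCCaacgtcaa

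The second set shows why the brightest MYH2 probe was read with caution. It shares 19 bases, in capitals, with a probe named for MYH1, and the array files list transcripts of both genes for each of these probes. The files list at most 4 accessions for a probe, so a probe that lists 1 heavy chain alone may still bind another.
MYH1 A_72_P590054: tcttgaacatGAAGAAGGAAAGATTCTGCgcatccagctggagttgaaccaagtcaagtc
MYH2 A_72_P600848: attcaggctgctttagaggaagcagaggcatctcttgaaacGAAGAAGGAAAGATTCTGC

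Some probes lay on the opposite strand from others of the same gene. In each of these pairs the capitals of one probe are the reverse complement of the capitals of the other, over 16 bases in TNNC2 and 38 in MYLPF. The second probe of each pair therefore cannot bind the same strand as the first.
TNNC2 A_72_P611718: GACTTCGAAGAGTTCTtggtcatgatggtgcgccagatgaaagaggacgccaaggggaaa
TNNC2 A_72_P070111: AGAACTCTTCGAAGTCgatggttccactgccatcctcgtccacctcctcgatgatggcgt
MYLPF A_72_P035721: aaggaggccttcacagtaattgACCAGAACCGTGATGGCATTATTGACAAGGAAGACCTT
MYLPF A_72_P504419: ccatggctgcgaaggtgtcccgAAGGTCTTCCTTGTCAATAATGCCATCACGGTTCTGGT

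The last set holds the TNNT3 probe that went apart from its fellows, followed by a TNNT3 probe that did not, and 1 of the MYH4 probes with the larger group differences.
TNNT3 A_72_P015556: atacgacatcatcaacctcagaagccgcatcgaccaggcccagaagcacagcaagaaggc
TNNT3 A_72_P535015: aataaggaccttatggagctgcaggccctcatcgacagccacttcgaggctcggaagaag
MYH4 A_72_P574514: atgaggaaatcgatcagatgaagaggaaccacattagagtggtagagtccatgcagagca

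A level is the log2 signal of a probe after subtraction of the 75th percentile of its array's log2 signals, so that a difference of 1 is a 2-fold change. The brightness of a probe depends on its sequence, and levels were not compared between genes. All 69 probes lay well above background on all 23 arrays and none was saturated on any. They were at the bright end of the array: 27 of the 100 brightest of 27803 probes kept for testing belonged to these genes, which made up 0.248% of the probes. Between 41.7% and 79.1% of all probes lay well above background on an array, and 4 arrays scanned from slide 3 had the lowest median, 50.2%. Of 7 skeletal muscle fibre markers 5 had a probe, and all 5 (ACTA1, CKM, DES and the members MYLPF and TNNT3) were well above background on 23 of 23 arrays. Each gene is described by its main probe, the brightest, and then by all of its probes. The number of pigs limits the precision, and in whole muscle fewer fibres of a type and less RNA per fibre cannot be told apart.

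No fast fibre contractile gene passed the test between freely fed low and high RFI pigs once p-values were adjusted over the array. The 95% intervals of 7 of the 9 main probes held 0, and those of MYH1 (0.02 to 0.50) and TPM1 (0.01 to 0.34), taken before adjustment, did not. Fitted in limma over 27803 probes with Benjamini-Hochberg adjustment, 0 of 69 probes passed an adjusted p of 0.05 for RFIneg against RFIpl, with a lowest adjusted p of 0.232 (a MYL1 probe). In the same comparison 34 probes of the whole array passed, or 0.122%. Without adjustment 26 of the 69 had a p under 0.05, all 26 with the higher level in RFIneg. Of all probes 11.1% had such a p and 7.19% had it with the higher level in RFIneg. Probes of 1 gene share a transcript and are not separate evidence. With 75th percentile scaling 66 of 69 probes were higher in RFIneg, against 55.3% of all probes, and with no scaling between arrays 40 of 69 were, in a setting where the median of all probes was itself -0.14. No probe separated the groups without overlap, as 0.352% of all probes did.

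The heavy chain of type IIX fibres, MYH1, had levels from 9.49 to 9.91 with a median of 9.66 in RFIneg pigs, and from 9.06 to 9.81 with a median of 9.41 in RFIpl pigs (main probe A_72_P635603). The groups overlapped, with some RFIneg pigs above the highest RFIpl pig and the lowest RFIneg pig above the RFIpl median. The mean was 9.69 ± 0.14 in RFIneg and 9.43 ± 0.23 in RFIpl pigs (SD, n = 7 and n = 8). The difference was 0.26 ± 0.12 (SE), with a 95% interval from 0.02 to 0.50 and a limma adjusted p of 0.394. It was 0.10 with no scaling between arrays. For this main probe the files list transcripts of both MYH1 and MYH4. The 3 probes that list MYH1 alone had differences from 0.16 to 0.28 with a median of 0.18 and a lowest adjusted p of 0.346. The highest was that of A_72_P599694, which shares 46 bases with the main probe. Within groups A_72_P599694 correlated by 0.93 to 0.96 with the dimmer MYH4 probes described below. With the others that list MYH1 alone it correlated by 0.60 and 0.62.

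MYH4, the heavy chain of type IIB fibres, had 8 probes that list no other heavy chain, and they fell into brighter and dimmer ones. The 3 with mean levels above 9 had RFIneg minus RFIpl differences from 0.15 to 0.17. The 5 with mean levels below 9 had differences from 0.37 to 0.43, with adjusted p from 0.283 to 0.348 in limma. A_72_P574514, for example, ran from 8.93 to 9.33 with a median of 9.17 in RFIneg pigs, and from 8.19 to 9.17 with a median of 8.74 in RFIpl pigs. On this probe only the upper RFIpl pigs reached the RFIneg levels. These 5 were the members with the largest differences, and all 5 stayed above 0 under the 42 other settings tried, from 0.20 with no scaling between arrays to 0.59 on the first scan day alone. The split at a level of 9 was chosen after the values were seen. The dimmer probes followed each other over the 23 pigs, with correlations from 0.95 to 0.99 between them within groups. They correlated with the brighter ones by 0.54 to 0.82. Among the dimmer ones A_72_P599573, A_72_P687460 and A_72_P615705 share runs of 29 to 44 bases with each other, so they are not separate readings.

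MYH2, the heavy chain of type IIA fibres, gave different answers by probe. The main probe A_72_P600848, for which the files list MYH1 too, averaged 8.19 ± 0.19 in RFIneg and 8.04 ± 0.17 in RFIpl pigs, a difference of 0.15 ± 0.13 with a limma adjusted p of 0.754. The 2 probes that list MYH2 alone differed by -0.19 ± 0.23 (A_72_P440201, adjusted p 0.824) and -0.17 ± 0.21 (A_72_P694038, adjusted p 0.841). The lowest level of A_72_P440201 belonged to an RFIneg pig (replicate 7), with 6.74, against 7.79 in the next pig of that group. Without this pig the difference of the same probe was -0.01. The array of this pig was on slide 3, and without the 4 arrays of that slide the difference was -0.15 ± 0.16 (SE). It was -0.37 on the first scan day alone and 0.02 on the second alone.

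The probes that list MYH2 alone were the most variable of the 69 between pigs. Across all 23 pigs A_72_P440201 ran from 6.74 to 8.64, a 3.74-fold range, and A_72_P694038 from 6.06 to 7.85. On both probes the lowest pigs were RFIneg replicate 7 and RFIpl replicate 5, whose arrays were on slide 3. The other arrays of that slide, RFIplR replicates 6 and 8, had 8.46 and 7.83 on A_72_P440201. The SD between pigs within groups was 0.46 and 0.43 on the probes that list MYH2 alone, against 0.26 on the main MYH2 probe. It was 0.36 on the MYH1 probe A_72_P590054, which has a like level (7.86, against 7.95 for A_72_P440201). The median SD was 0.17 over the 69 probes, most of them brighter, and 0.30 over all 27803. Over 67 probes, without the opposite-strand ones, level and SD correlated by -0.68, as a description. The levels of both MYH2 probes ordered the pigs alike (r = 0.99 within groups over 23 arrays), while the main MYH2 probe did not follow them (r = 0.13 with A_72_P440201). A probe outside the list, described in the files as Myosin-2, followed them with r = 0.96, and its RFIneg minus RFIpl difference was -0.30 (adjusted p 0.802 in limma).

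**Figure D1:**
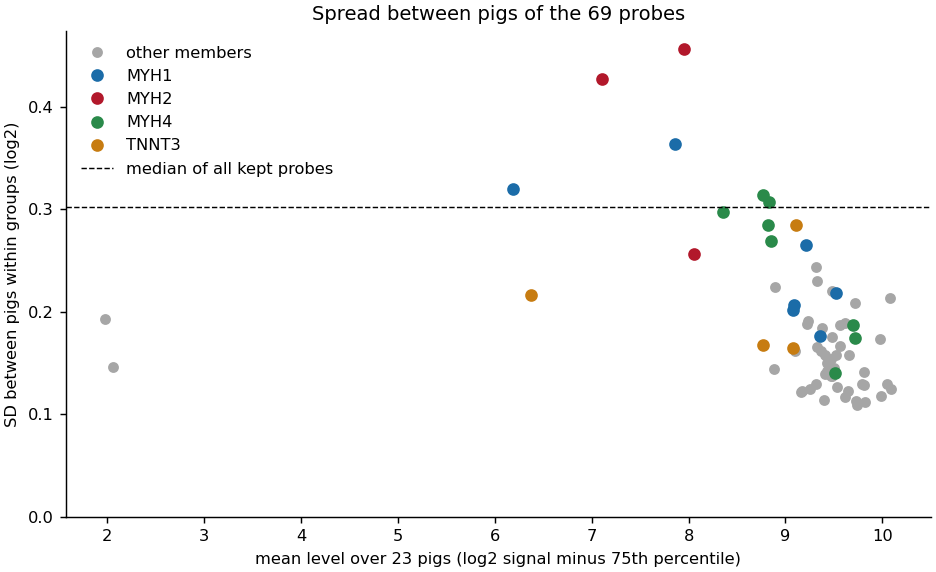
Mean level of each of the 69 probes over 23 pigs (x axis, log2 signal minus 75th percentile) against its SD between pigs within groups (y axis, log2), with 4 genes in colour. The MYH2 probes that list MYH2 alone have the highest SDs, 0.46 and 0.43, and most probes lie below the dashed line at 0.30, the median of all kept probes.

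No light chain probe passed the test. MYLPF, the fast regulatory light chain, averaged 9.88 ± 0.05 in RFIneg and 9.74 ± 0.13 in RFIpl pigs on its main probe, with ranges from 9.79 to 9.95 and from 9.58 to 9.90. The difference was 0.14 ± 0.08 with a limma adjusted p of 0.536, and -0.03 with no scaling between arrays. MYL1, the fast essential light chain, averaged 10.10 ± 0.11 in RFIneg and 9.90 ± 0.23 in RFIpl pigs, a difference of 0.19 ± 0.10 (adjusted p 0.467). Its 15 probes had differences from 0.09 to 0.27, of which 9 fell below 0 with no scaling between arrays.

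Of the troponin subunits, TNNI2 (inhibitory) averaged 9.69 ± 0.17 in RFIneg and 9.48 ± 0.18 in RFIpl pigs, a difference of 0.21 ± 0.10 with a limma adjusted p of 0.455. TNNC2 (calcium-binding) averaged 10.17 ± 0.07 in RFIneg and 10.02 ± 0.14 in RFIpl pigs, a difference of 0.16 ± 0.08 (adjusted p 0.465) that was -0.01 with no scaling between arrays. TPM1, the tropomyosin, averaged 10.14 ± 0.03 in RFIneg and 9.97 ± 0.15 in RFIpl pigs, a difference of 0.18 ± 0.08 (adjusted p 0.410) that was 0.01 with no scaling. All 21 TPM1 probes were higher in RFIneg with 75th percentile scaling, by 0.10 to 0.25, and 16 of 21 were with no scaling. The RFIneg levels of the TPM1 main probe lay between 10.11 and 10.18, and those of RFIpl pigs between 9.74 and 10.14, so that the RFIneg pigs overlapped only the highest RFIpl pigs.

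The opposite-strand probes were well above background as well, at mean levels of 1.98 (TNNC2 A_72_P070111) and 2.06 (MYLPF A_72_P504419). Their RFIneg minus RFIpl differences were 0.06 ± 0.11 and 0.14 ± 0.09 with limma adjusted p of 0.896 and 0.593. Within groups the TNNC2 one correlated by at most 0.39 with the other TNNC2 probes, whose own correlations reached 0.96.

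**Figure D2:**
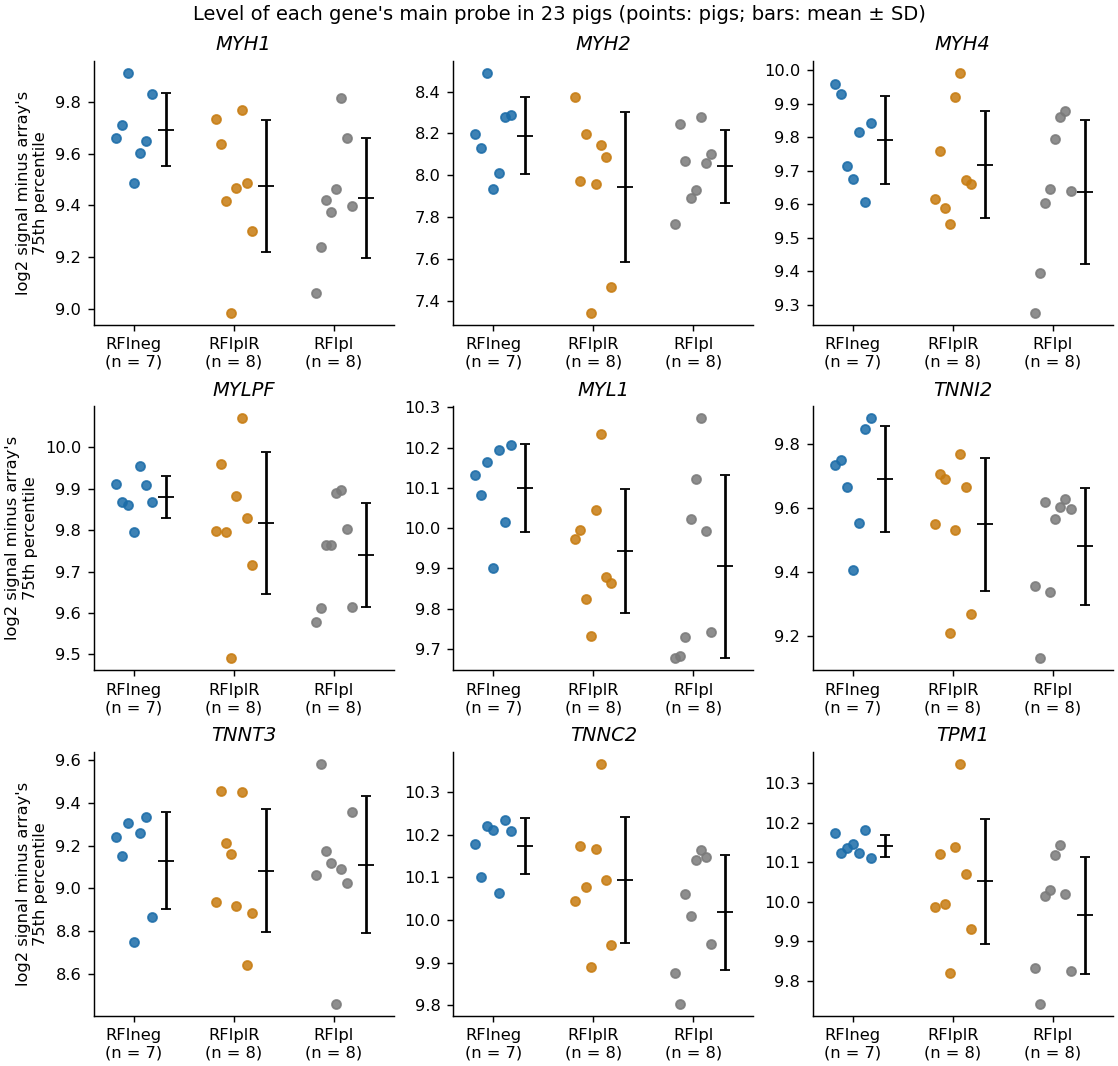
Level of the main probe of each of the 9 genes (y axes, log2, scaled by 75th percentile, each panel with its own range) in RFIneg (n = 7), RFIplR (n = 8) and RFIpl (n = 8) pigs, with the mean ± SD beside the points. The groups overlap in every panel, and for TPM1 the RFIneg pigs span 10.11 to 10.18 against 9.74 to 10.14 in RFIpl pigs.

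TNNT3, the tropomyosin-binding troponin subunit, is known to be made in many forms by alternative splicing, and its probes disagreed. The main probe A_72_P015556 averaged 9.13 ± 0.23 in RFIneg and 9.11 ± 0.32 in RFIpl pigs, a difference of 0.02 ± 0.15 (limma adjusted p 0.976). Its other 3 probes differed by 0.23 to 0.27 with adjusted p from 0.294 to 0.369, and by 0.06 to 0.11 with no scaling between arrays. Within groups the main probe correlated with the other 3 by 0.04 to 0.20, whereas those 3 correlated with each other by up to 0.93. Which exons each probe covers was not determined here.

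The TNNT3 main probe instead moved with the probes that list MYH2 alone. Over 23 arrays with group means taken off, its r was 0.73 with A_72_P440201 and 0.77 with A_72_P694038. Without the 4 arrays of slide 3 these were 0.59 and 0.64. The other 66 member probes had correlations with A_72_P440201 from -0.41 to 0.26, with a median of -0.18. The arrays share slide, depth of signal and scaling, the pair was picked after its values were seen, and these correlations are a description.

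**Figure D3:**
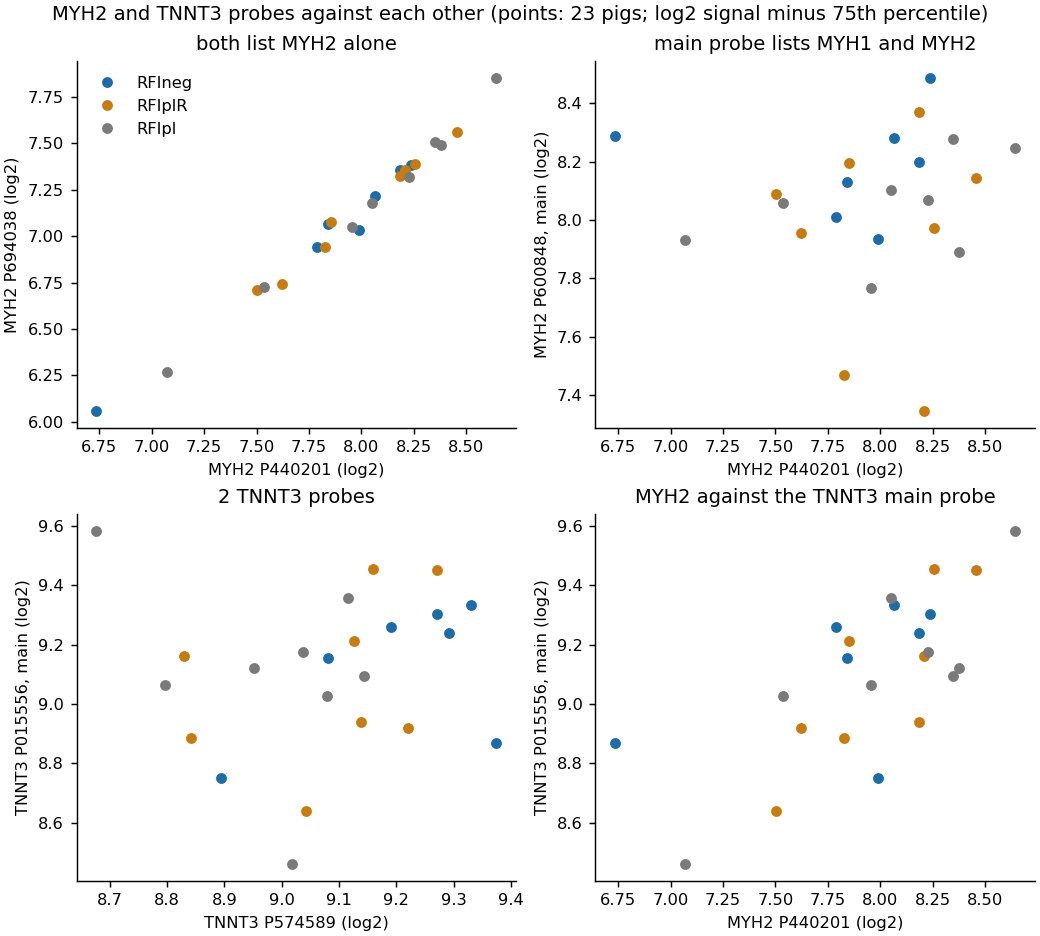
Levels of probe pairs in 23 pigs (log2 signal minus 75th percentile on both axes), coloured by group. The MYH2 probes that list MYH2 alone lie on a line (r = 0.99 within groups), the main MYH2 probe does not follow them (r = 0.13), the TNNT3 main probe does not follow another TNNT3 probe, and it does follow MYH2 A_72_P440201 (r = 0.73).

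Between feed-restricted and freely fed high RFI pigs no fast fibre gene differed by the test. For RFIplR against RFIpl 0 of 69 probes passed in limma, with a lowest adjusted p of 0.692, and 0 had an unadjusted p under 0.05, against 9.75% of all probes (4.95% with the higher level in RFIplR). On the whole array 1 probe passed, or 0.0036%. With 75th percentile scaling 58 of 69 probes were higher in RFIplR, against 53.1% of all probes, and with no scaling between arrays 37 of 69 were. No member probe separated these groups, as 0.0791% of all probes did. The 9 main probes had differences from -0.10 (MYH2, SE 0.13) to 0.09 (TPM1, SE 0.08), and all 9 intervals held 0, the widest limits being -0.37 and 0.28. MYH1 averaged 9.48 ± 0.25 in RFIplR and 9.43 ± 0.23 in RFIpl pigs (SD, n = 8 each), a difference of 0.05 ± 0.11 (adjusted p 0.952). MYH4 averaged 9.72 ± 0.16 in RFIplR and 9.64 ± 0.21 in RFIpl pigs, a difference of 0.08 ± 0.09 (adjusted p 0.863). The MYH2 probe A_72_P440201 differed by -0.04. The dimmer MYH4 probes differed by -0.07 to 0.11 in this comparison, by up to 0.37 on the first scan day alone and by as little as -0.28 on the second alone.

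At equal feeding, low and high RFI pigs did not differ in these genes by the test either. For RFIneg against RFIplR 0 of 69 probes passed in limma, with a lowest adjusted p of 0.307, against 45 of all probes, or 0.162%. Here 3 of 69 had an unadjusted p under 0.05, all higher in RFIneg, against 10.2% of all probes (5.57% with the higher level in RFIneg). With 75th percentile scaling 67 of 69 probes were higher in RFIneg, against 54.7% of all probes, and with no scaling between arrays 36 of 69 were. No member probe separated these groups, as 0.227% of all probes did. The 3 probes were the MYH4 probes A_72_P574514 and A_72_P675825 and the MYL1 probe A_72_P223632. The dimmer MYH4 probes had differences that ran from 0.28 to 0.44 and stayed above 0 under the 42 other settings tried, the lowest being 0.16 with no scaling between arrays. On A_72_P574514 the RFIplR pigs ran from 8.12 to 9.01 with a median of 8.74, so that only their upper members reached the RFIneg range of 8.93 to 9.33. The main MYH2 probe averaged 8.19 ± 0.19 in RFIneg and 7.94 ± 0.36 in RFIplR pigs, a difference of 0.25 ± 0.13 (adjusted p 0.538). The probes that list MYH2 alone went the other way, by -0.15 (A_72_P440201, adjusted p 0.877) and -0.13 (A_72_P694038, adjusted p 0.890), and were the 2 of 69 below 0. Without the arrays of slide 3 they were at 0.08 and 0.07. This comparison and the first share the RFIneg pigs, and the first and second share the RFIpl pigs. In the F test over the 3 groups 0 of 69 probes passed, with a lowest adjusted p of 0.267, against 0.137% of all probes.

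The direction of the shared shift, taken as it stands, turned with the scaling of arrays to each other. The median difference over the 9 main probes was 0.16 for RFIneg minus RFIpl, 0.07 for RFIplR minus RFIpl and 0.09 for RFIneg minus RFIplR, where the median over all kept probes was 0.02, 0.01 and 0.02. With no scaling between arrays the main probes had medians of -0.01, 0.02 and -0.03, while all kept probes moved to -0.14, -0.04 and -0.10. Relative to the median of all probes the main probes stood at 0.13, 0.06 and 0.07. The scaling subtracts 1 constant from all probes of an array, so these relative values are the same with and without it by construction. Quantile normalization, which forces the same distribution on each array, gave 0.01, 0.02 and -0.02 for the main probes and 0.01, 0.01 and -0.02 relative to all probes.

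For RFIneg minus RFIpl the dimmer MYH4 probes had a median relative to all probes of 0.36 with 75th percentile scaling and 0.26 with quantile normalization. The 75th percentile itself averaged 8.69 ± 0.13 in RFIneg, 8.81 ± 0.17 in RFIplR and 8.86 ± 0.15 in RFIpl pigs (SD, n = 7, 8 and 8). Before scaling, the mean of the 9 main probes was 18.33 ± 0.18 in RFIneg, 18.33 ± 0.20 in RFIplR and 18.34 ± 0.15 in RFIpl pigs. After scaling it was 9.64 ± 0.08 in RFIneg, 9.52 ± 0.17 in RFIplR and 9.48 ± 0.12 in RFIpl pigs. What moved the 75th percentile was not tested.

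The arrays were scanned on 2 days, each with all 3 groups (4 RFIneg, 4 RFIplR and 4 RFIpl pigs on the first, 3, 4 and 4 on the second). On the first day alone the median over the 9 main probes was 0.15 for RFIneg minus RFIpl, 0.10 for RFIplR minus RFIpl and 0.08 for RFIneg minus RFIplR. On the second day alone it was 0.17, 0.05 and 0.13, and 0 of 69 probes passed on either day.

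**Figure D4:**
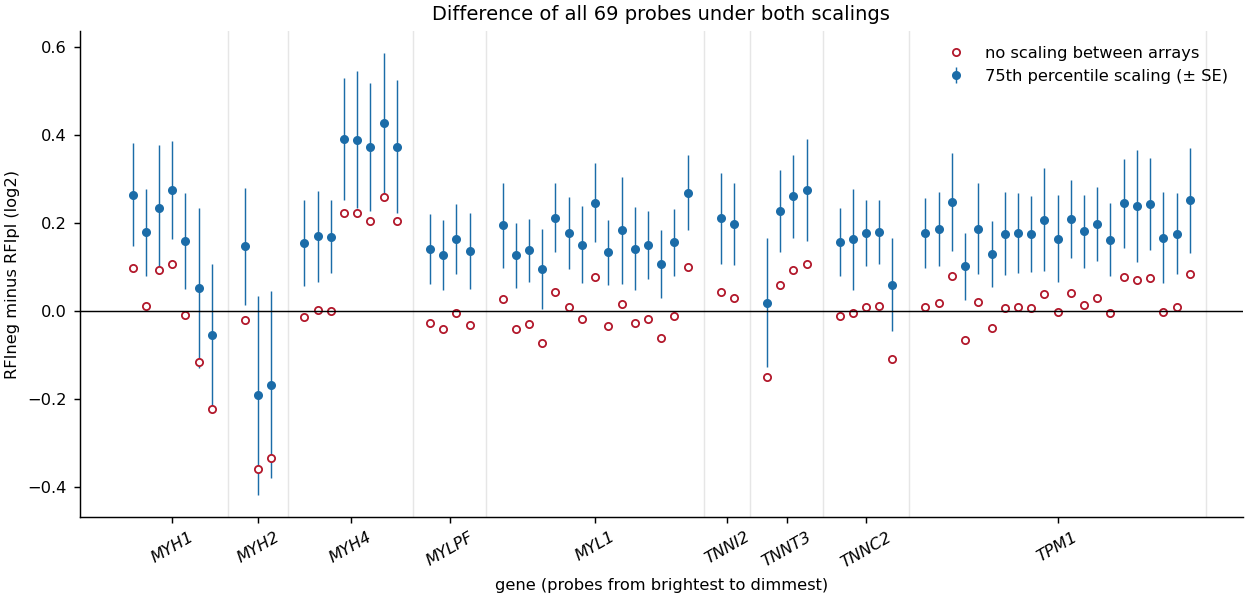
RFIneg minus RFIpl difference (y axis, log2) of each of the 69 probes, grouped by gene from the brightest to the dimmest probe, with 75th percentile scaling (filled, ± SE) and with no scaling between arrays (open). With scaling 66 of 69 probes lie above 0 and without it 40 of 69, where the median of all probes is -0.14. Leaving out the scaling moves all probes down by the same constant. The 5 dimmer MYH4 probes stay above 0 in both. The 2 MYH2 probes that list MYH2 alone lie below 0 with scaling and so had to lie lower without it.

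**Figure D5:**
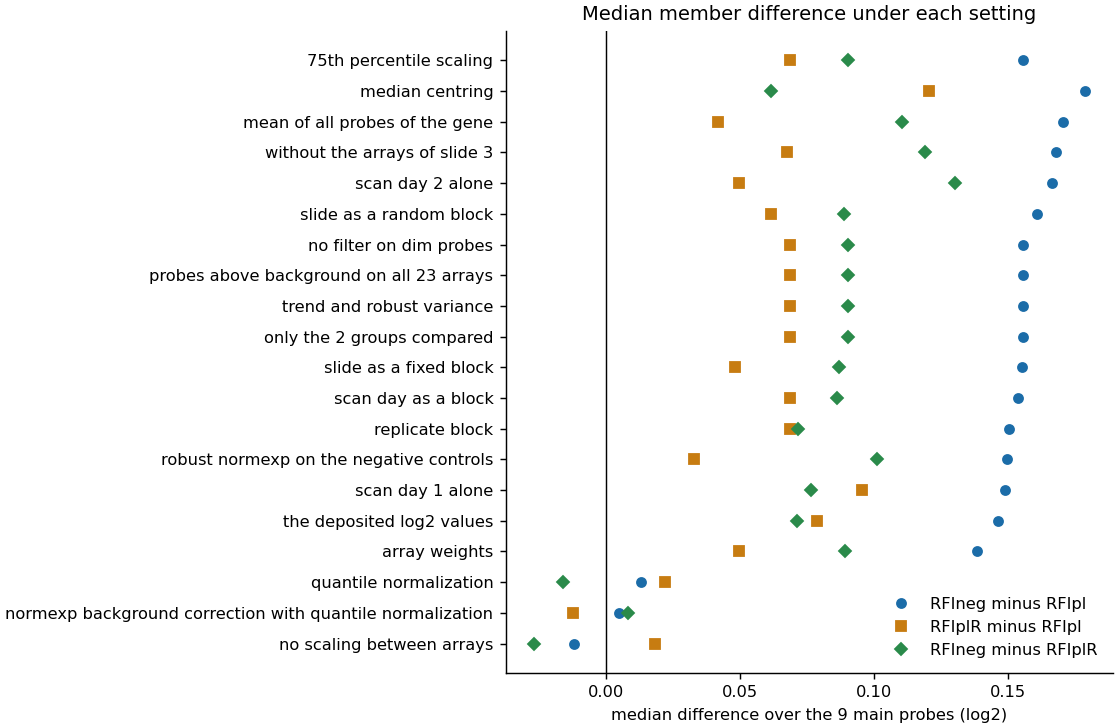
Median difference over the 9 main probes (x axis, log2) for each pair of groups under 75th percentile scaling (top) and the other settings, from the highest to the lowest RFIneg minus RFIpl value. The median for RFIneg minus RFIpl lies between 0.14 and 0.18 for most settings, at 0.01 with quantile normalization and at -0.01 with no scaling between arrays.

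At this number of pigs the test could call only larger differences. To reach the smallest t statistic among the 34 probes called for RFIneg minus RFIpl, the 9 main probes would have needed differences of 0.38 to 0.71. The upper ends of their 95% intervals reached 0.50 at most. With 75th percentile scaling the SD between pigs was smallest in RFIneg for 57 of the 69 probes, or 82.6%, against 45.4% of all probes. It was smallest in RFIplR for 4 (22.1% of all probes) and in RFIpl for 8 (32.4%). For TPM1 the SDs were 0.03 in RFIneg, 0.16 in RFIplR and 0.15 in RFIpl pigs. With no scaling between arrays the SD was smallest in RFIneg for 47 of 69 probes, or 68.1%, against 47% of all probes, and the mean of the main probes varied least in RFIpl pigs. On MYH2 A_72_P440201 the SD was 0.51 in RFIneg, 0.34 in RFIplR and 0.51 in RFIpl pigs. The RFIneg value includes replicate 7, which lay apart at 6.74. The RFIpl value includes replicate 5, the lowest of its group at 7.07. The arrays of both pigs were on slide 3. No test of the spread was made.

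The main probes of most fast genes went up and down together over pigs. By the mean of the 9 main probes the lowest were RFIplR replicate 4 (9.24), RFIpl replicate 1 (9.28), RFIplR replicate 8 (9.34) and RFIpl replicate 2 (9.38), and the highest was RFIplR replicate 6 (9.79). Within groups, TPM1 correlated with TNNC2 by 0.93 and with MYLPF by 0.92, and MYH1 with MYL1 by 0.77, all over 23 arrays that share scaling. TNNT3's main probe had correlations from -0.14 to 0.24 with the other 8 main probes. Of the adipocyte markers 6 of 7 were measured and all 6 were lower in RFIneg, with a median difference of -0.63 and a lowest limma adjusted p of 0.290. Their mean level ran from 0.19 to 1.54 in RFIneg, from 0.28 to 2.03 in RFIplR and from -0.16 to 2.57 in RFIpl pigs. It was highest in RFIpl replicates 2 and 1 and in RFIplR replicate 8, which are among the low pigs above. RFIplR replicate 4, the lowest pig, had 1.18. Within groups the adipocyte mean correlated with the mean of the fast fibre genes by -0.50 with both scaled. The correlation was 0.11 with the fast fibre genes alone taken before scaling. The part of the adipocyte markers in the differences was not tested. Of the lists for matrix, endothelial, smooth muscle and leukocyte cells 0 measured markers passed. The lowest adjusted p was that of FN1, a matrix protein, at -0.69 for RFIneg minus RFIpl (limma adjusted p 0.118). The other measured matrix markers, COL1A2 and DCN, differed by 0.18 and -0.06 for RFIneg minus RFIpl, and the median of this list was -0.06. In that comparison 4 of 5 leukocyte markers were lower in RFIneg, where 55.3% of all probes were higher. S100A8, which was among those lower, lay well above background on only 14 of 23 arrays. Within groups the mean of the fast fibre genes correlated with that of the leukocyte markers by -0.44 and of the smooth muscle markers by 0.59. With the matrix and endothelial markers the correlation was -0.12 each. With the fast fibre genes alone taken before scaling, it was -0.39 for leukocyte and 0.26 for smooth muscle markers. For matrix and endothelial markers it then changed sign, to 0.49 and 0.27. Before scaling, the mean of the fast fibre genes itself correlated by 0.69 with the arrays' 75th percentile within groups. The values with these genes alone unscaled, also that for adipocyte markers, therefore cannot show what the scaling contributed. Of the nerve markers 1 of 2 passed, UCHL1 for RFIneg minus RFIplR (-1.07, limma adjusted p 0.039). The nerve markers' mean correlated by 0.08 with that of the fast fibre genes. Red cell and satellite cell markers had 0 named probes.

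The genes whose levels followed the mean of the 9 main probes best within groups were ACTA1 (skeletal actin, r = 0.92), ENO3 (muscle enolase, 0.91), GAPDH (0.90), CKM (muscle creatine kinase, 0.89) and MUT (0.85), out of 7565 named probes of other genes. The lowest were MED23 (-0.81) and NTN1 (-0.79). None of the 7 passed in limma for RFIneg minus RFIpl: ENO3 differed by 0.30 (adjusted p 0.269) and the CKM probe of this ranking, which is not the brightest of that gene, by 0.31 (0.290).

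Among 27 other fast fibre and sarcomere genes, 12 had a measured probe and 0 passed in any comparison. For RFIneg minus RFIpl 10 were higher and 2 lower with 75th percentile scaling, with a median of 0.14. The smallest p belonged to CAPZB (actin capping, 0.37, adjusted p 0.232), ENO3 and DES (desmin, 0.16, adjusted p 0.479). PVALB, the calcium buffer of fast fibres, differed by -0.80 ± 0.27 for RFIplR minus RFIpl (adjusted p 0.274) and by 0.55 ± 0.28 for RFIneg minus RFIplR (adjusted p 0.516). MYOT (myotilin, of the Z disc) differed by -0.28 for RFIneg minus RFIplR (adjusted p 0.381). Of 16 slow fibre genes 11 were measured and 0 passed: for RFIneg minus RFIpl 3 were higher and 8 lower with a median of -0.07. The smallest p belonged to CSRP3 (a muscle LIM protein, -0.74 ± 0.40, adjusted p 0.509), TNNC1 (slow troponin C, 0.12) and MYH7 (slow heavy chain, 0.13). Of 8 genes of developing fibres 3 were measured, with RFIneg minus RFIpl differences of 0.01 for MYOG and MYOD1 and 0.03 for CHRNA1.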

How the data were processed

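Each pig's total RNA carried the Cy3 dye and went on 1 Agilent array, per the labels' protocols. Spot intensity in the deposited scanner files is Feature Extraction 10.7.3.1's processed signal, per the file headers, with background and spatial trend removed but arrays left on their own scales. The deposited log2 table (26410 probes, R 2.10.0 per the submitters' processing notes) differs from that signal's log2 by 1 constant an array and served as an alternative, as did mean and background intensity of the deposited files.

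The 75th percentile was subtracted over 43803 non-control spots, outlier-flagged spots were set to missing, and spots of a probe were averaged. A probe was tested if at least 6 arrays of any 1 group had it well above background (27803 of 43603). A single model of the 3 groups was fitted with limma 3.58.1 (R 4.3.3), with Benjamini-Hochberg adjustment over tested probes. Slide and scan day were read from file headers. All members were named. Of other lists the 3 smallest p per comparison could be named, and of the genes most like the members 5 highest and 2 lowest. Members and lists were chosen with earlier results of these data known.

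On simulated arrays of 27330 probes, 81 of 100 probes raised by 1 and 24 of 100 raised by 0.5 in RFIneg were called for RFIneg minus RFIpl, with 10 of 27130 unchanged ones. The raised probes were drawn from the whole array, with normal noise that was independent between probes. Member probes varied less (median SD 0.17, against 0.30 over all kept probes) and followed each other, so these rates do not describe them. Nothing in the labels says how the pigs were related, and p-values measure the spread between pigs.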

Additional observations from a re-analysis of the deposited data

Results flagged for a closer look

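Of 207 groups examined (69 probes in 3 groups of 7 or 8 pigs), 20 held a pig that stood apart from the rest of its group by Dixon's criterion at the 95% level. Chance gives about 1 in 20 groups, and probes of 1 gene are not independent.

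Most of these were the same pigs on several probes of a gene. RFIpl replicate 2 was flagged as the lowest of its group on 7 TPM1 probes, with levels of 9.32, 9.07, 8.92, 9.06, 8.87, 8.67 and 8.70. It was also the lowest on further TPM1 probes without a flag. RFIplR replicate 4 was flagged as the lowest of its group on 4 dimmer MYH4 probes, with 8.12 (A_72_P574514), 8.08, 8.11 and 8.02. On the remaining dimmer MYH4 probe, A_72_P675825, it was also the lowest (7.53), without a flag. RFIneg replicate 7 was the lowest of its group on both probes that list MYH2 alone, with 6.74 (A_72_P440201) against 7.79 in the next pig, and 6.06 (A_72_P694038) against 6.94. The same pig was the highest of its group on a MYL1 probe (9.92) and a TPM1 probe (9.52).

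RFIneg replicate 4 was the lowest of its group on a TNNI2 probe (9.17) and on the opposite-strand MYLPF probe (1.74). The MYH1 probe A_72_P442365, which lists all 3 heavy chains, had a low RFIneg pig (replicate 3, 5.37) and a low RFIpl pig (replicate 1, 5.67). RFIplR replicate 6, the pig with the highest mean of the main probes, was the highest of its group on a MYL1 probe (9.67).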

How the results depend on the processing

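In the 42 other settings that tested all 69 member probes, 0 passed in any comparison, with a lowest adjusted p of 0.133. The median RFIneg minus RFIpl difference of the 9 main probes moved by more than the SD between pigs (0.130) in some settings. These were quantile normalization (0.013), normexp background correction with quantile normalization (0.0049) and no scaling between arrays (-0.012). That SD is of single pigs and does not measure the error of a difference between group means. Leaving out each pig gave medians from 0.14 to 0.19 for RFIneg minus RFIpl, 0.03 to 0.11 for RFIplR minus RFIpl and 0.06 to 0.13 for RFIneg minus RFIplR, with 0 probes passing. Of 27 main-probe differences, 11 changed sign with normexp and quantile normalization and 7 with quantile normalization. With no scaling 12 did, where all probes of an array shift by the same constant. No scaling and each scan day alone were chosen after the data were seen.

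For pigs with the same replicate number, deviations from the group means correlated by -0.30 to 0.33. Such correlations cannot decide whether the numbers pair the pigs, and the labels do not say. With the replicate number as a block, the medians were 0.15 and 0.07 for RFIneg and RFIplR minus RFIpl, with 0 of 69 probes passing, and the F test called 19 probes of the array in place of 38.

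Counts over the whole array depended more on the setting: 18 to 103 probes passed for RFIneg minus RFIpl (34 as reported), 0 to 7 for RFIplR minus RFIpl (1), 15 to 99 for RFIneg minus RFIplR (45) and 19 to 181 in the F test (38). The highest counts but that of RFIplR minus RFIpl came with array weights. The number of pigs limits what could be called, and probes of the heavy chain copies may bind more than 1 transcript.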
